A study of Mus musculus with 46 samples.

Results

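Branched-chain amino acid metabolism was followed through 9 genes named by symbol: the transaminases Bcat1 and Bcat2, the keto acid dehydrogenase genes Bckdha, Bckdhb and Dbt, the complex's kinase Bckdk, and the leucine-branch genes Ivd, Mccc1 and Mccc2. All 9 have a row among the 21671 genes of the deposited RNA-seq table, and all 9 were among the 14566 genes tested. The rule goes by symbol and names no measured value, but the 9 genes were chosen with earlier results of these data known. Bcat1 passed the filter on low values only through the Myc tumours, the group in which it is high, so its passing is no result in itself, and counts that include it are a description.

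The samples were primary FVB mouse tissue in 4 groups. Control liver was normal liver (11 libraries, 11 animal IDs). Myc tumours were liver tumours of tet-Myc/LAPtTA mice with tet-Myc expression on (16 libraries, 7 IDs). Myc-off tumours came from the same genotype with the transgene switched off through doxycycline in the food for 16 h (8 libraries, 3 IDs). MycVD tumours carried the tet-Myc transgene with the V394D substitution, also under LAPtTA, with expression on (11 libraries, 10 IDs). LAPtTA is a tetracycline-controlled transactivator that acts in liver cells, and transgene expression was started in utero. The labels do not give the controls' transgenes, the age of the animals, or a doxycycline-fed control liver. V394D is known to weaken the contact of Myc with the transcription factor Miz1. MycVD IDs are numbered above the Myc tumour IDs and Myc-off IDs above all other IDs. The labels do not say what the numbering follows. Whatever it follows cannot be told apart from the transgene or the switch-off.

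Leucine, isoleucine and valine are broken down in mitochondria in a shared opening. A transaminase moves the amino group to 2-oxoglutarate: Bcat1 encodes the cytosolic enzyme and Bcat2 the mitochondrial enzyme. The branched-chain keto acid dehydrogenase complex then oxidises the keto acids irreversibly. Bckdha and Bckdhb encode the alpha and beta subunits of its E1 component and Dbt its E2 core. The kinase encoded by Bckdk phosphorylates the E1 alpha subunit and switches the complex off, and the phosphatase encoded by Ppm1k removes the phosphate. In normal adult liver transaminase activity is known to be low and dehydrogenase activity high, so that liver mainly oxidises keto acids made elsewhere. Ivd, isovaleryl-CoA dehydrogenase, and Mccc1 and Mccc2, the subunits of the biotin enzyme methylcrotonyl-CoA carboxylase, act further down the leucine branch.

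RefSeq start-site windows, on mouse build GRCm38.p6, were at hand for 8 of the 9 genes (11 windows of 250 bases before to 50 bases after a start). Dbt has no entry. The E-box CACGTG and the related motif CACGCG were searched on both strands because Myc and its partner Max are known to bind them. The windows below run from 120 bases before to 10 bases after the start, on the gene's strand. They are shown for the 2 genes whose level was highest in Myc tumours, Bcat1 with both of its starts and Bckdk, and for Mccc2, which holds the only CACGTG. Capitals mark a match, as its own letters or as the reverse complement.
Bcat1, chr6:145076148-145076277, minus strand: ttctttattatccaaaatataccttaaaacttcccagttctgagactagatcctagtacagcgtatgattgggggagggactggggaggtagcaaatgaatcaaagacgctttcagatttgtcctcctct
Bcat1, chr6:145048803-145048932, minus strand: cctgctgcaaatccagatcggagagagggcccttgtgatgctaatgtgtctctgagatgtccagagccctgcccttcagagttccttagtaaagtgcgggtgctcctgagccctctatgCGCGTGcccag
Bckdk, chr7:127903953-127904082, plus strand: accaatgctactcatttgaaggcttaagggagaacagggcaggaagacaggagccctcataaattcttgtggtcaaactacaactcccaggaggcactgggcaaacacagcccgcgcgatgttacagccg
Mccc2, chr13:100015630-100015759, minus strand: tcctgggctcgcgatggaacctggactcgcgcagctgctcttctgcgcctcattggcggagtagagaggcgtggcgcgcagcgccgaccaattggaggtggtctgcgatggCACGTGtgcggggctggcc
CACGTG lay in the windows of 1 of the 8 genes, Mccc2, and CACGCG in those of 1, the second start of Bcat1. Counted by window, each motif was in 1 of the 11. Among all 32851 windows of the same length, 7.15% held CACGTG and 9.27% held CACGCG. The windows of Bckdk, Bcat2, Bckdha, Bckdhb, Ivd and Mccc1 held neither. These matches describe letters in the windows and say nothing of binding.

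Levels are given as eRPKM, exonic RPKM, which is scaled for gene length and library depth. Group means and SDs are over animal IDs, with tumours of one ID averaged first. A gene is called when its adjusted p is under 0.05 in limma, fitted to log2(eRPKM + 0.5) of all tested genes and adjusted over all of them by the Benjamini-Hochberg method. Fold changes are differences on that log2 scale with their standard error, and they understate the change of genes at very low levels. The sources do not say that IDs are separate animals, which is an assumption here. If they are not, the p-values measure only the spread between samples.

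Library depth, recovered from the steps of low values, was 3.25 to 12.6 M reads, with group medians of 7.32 M (control), 9.65 M (Myc), 7.14 M (Myc-off) and 7.81 M (MycVD). The table's Myc row had medians of 5.56 eRPKM (control), 7.30 (Myc), 4.82 (Myc-off) and 6.84 (MycVD), and all 4 ranges overlapped. It does not check the labels, because the sources do not say whether the transgene is counted in it. Hepatocyte markers (7 of 8 in the table) were present in every library, with a summed level of 830 to 1414 eRPKM in control, 542 to 912 in Myc, 645 to 1663 in Myc-off and 689 to 1019 in MycVD libraries. Neutrophil markers summed to 7.79 to 21.6 eRPKM in control and 29.9 to 368 in tumour libraries, and endothelial markers to 141 to 272 and 36.1 to 116. Their part in the results was not tested. Apart from the rest stood 8 libraries with Gapdh under 30 eRPKM, 1 control (ID125322), 5 Myc and 2 MycVD. In these bulk samples fewer cells of a type and less RNA per cell cannot be told apart.

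Most of the pathway was lower in Myc tumours than in control liver, and its kinase and cytosolic transaminase were higher. Of the 9 genes, 2 were called higher (Bcat1, Bckdk), where 50.4% of all tested genes were called higher. Called lower were 6 (Bcat2, Bckdha, Bckdhb, Dbt, Ivd, Mccc1), where 29.7% of all tested genes were, and Mccc2 was not called. The median log2 fold change of the 9 was -0.48, beside 0.28 over all tested genes. With median-ratio scaling that overall median fell to 0.05 and the share of calls that were higher went from 62.9% to 52.2%. The 8 calls kept their direction and threshold under median-ratio and quantile scaling, and Mccc2 was also called lower under median-ratio scaling (-0.40). In MycVD tumours against the same control liver, 1 gene was called higher (49.2% of all tested genes) and 6 lower (31.1% of all tested genes), with a median of -0.70 beside 0.22. The call that the Myc comparison has beyond these is Bcat1.

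After 16 h without the transgene, Bcat1 and Bckdk were called lower than in Myc tumours (2 of 9, where 28.0% of all tested genes were called lower). Bckdha and Ivd were called higher (2 of 9, where 22.8% of all tested genes were). The median of the 9 was 0.00, as over all tested genes. MycVD tumours differed from Myc tumours in 2 of the 9, Bcat1 and Bcat2, both lower (9.69% of all tested genes were called lower), and in 0 called higher (6.14% of all tested genes were called higher). At an unadjusted p under 0.05 limma put 0 of the 9 higher there. The share of calls that were higher in it went from 38.8% to 55.6% with median-ratio scaling. Against control liver, Myc-off tumours had 1 of the 9 called higher (37.3% of all tested genes) and 6 called lower (20.9% of all tested genes), and the share of higher calls went from 64.1% to 49.1% with median-ratio scaling. The comparisons share their control or Myc tumour samples and are not independent of each other.

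**Figure D1:**
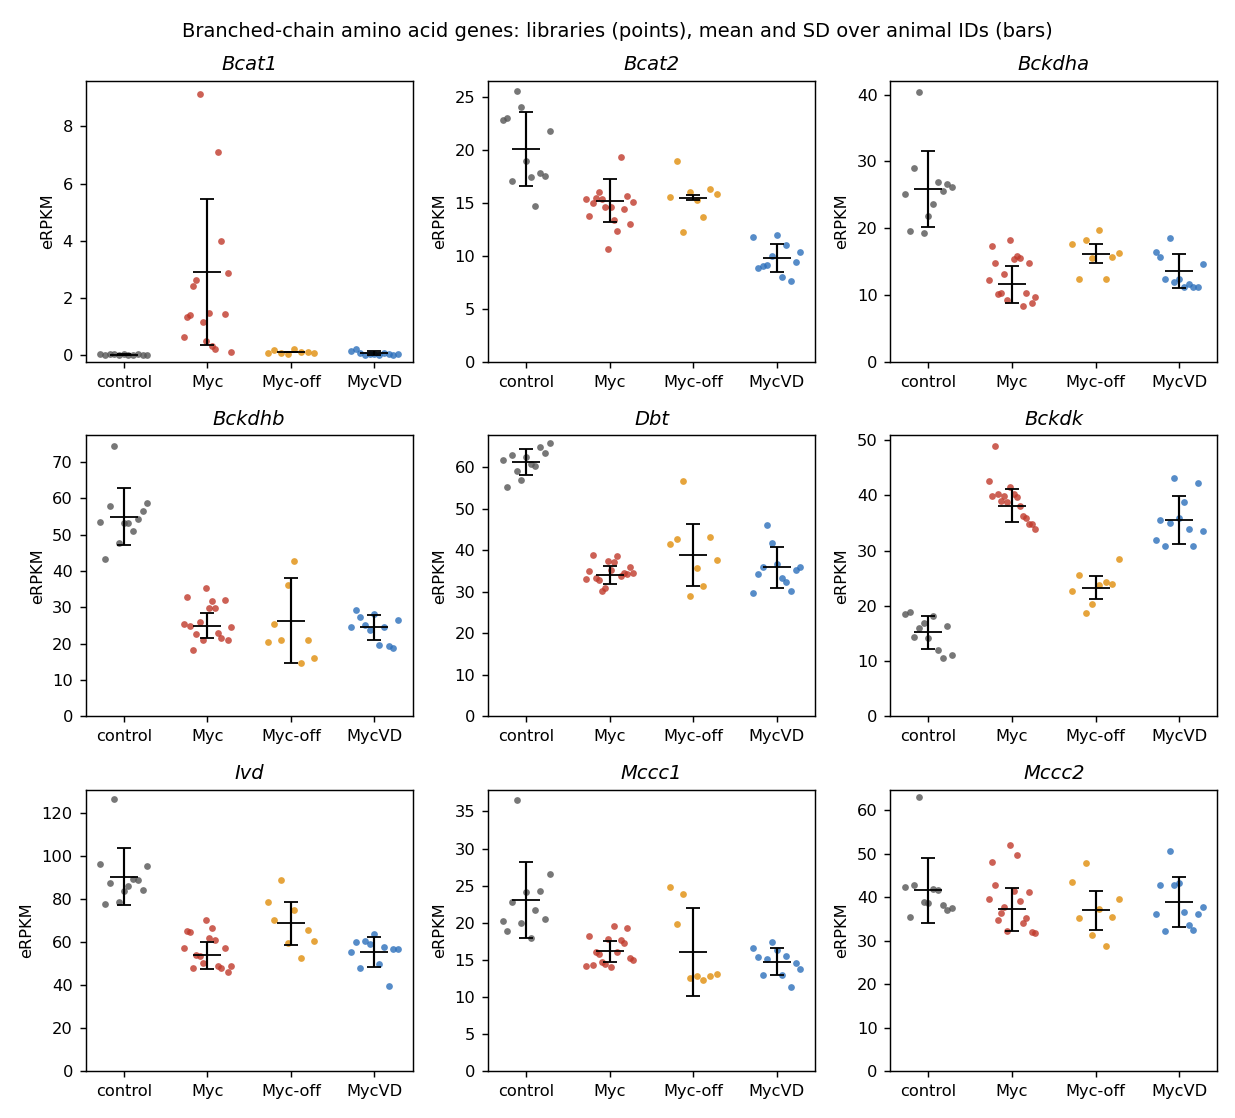
Level of each of the 9 genes in eRPKM (vertical axes, each from about 0) in the 4 groups; points are libraries, bars the mean and SD over animal IDs. Bcat1 stands above 0.3 eRPKM in Myc tumours alone, Bckdk is high in Myc and MycVD tumours, and Bckdha, Bckdhb and Dbt are highest in control liver.

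**Figure D2:**
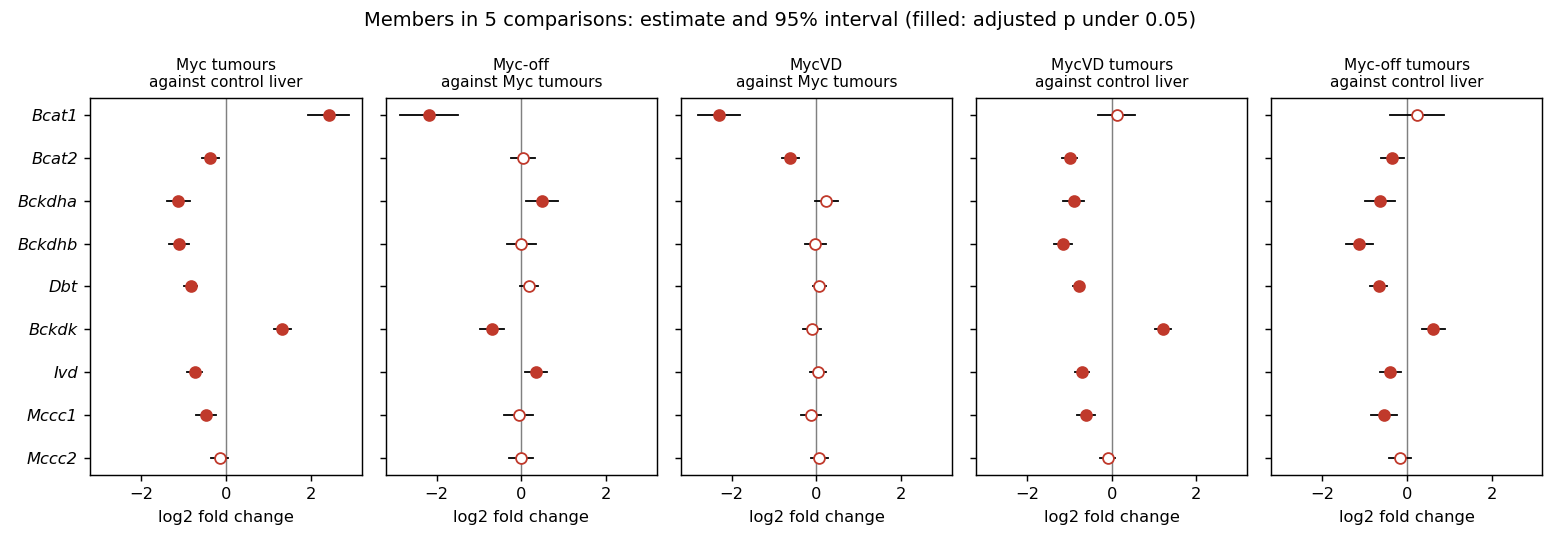
Log2 fold change (horizontal axes) of the 9 genes in the 5 comparisons, with 95% intervals; filled points passed the threshold of 0.05 for the adjusted p. In MycVD against Myc tumours the filled points are Bcat1 (-2.30) and Bcat2 (-0.61).

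Bcat1, the cytosolic transaminase, was close to undetected in control liver and was detected in all 16 Myc tumours. The 11 control libraries held 0 to 2 reads each and 6 in all, with 0 reads in 6 libraries, which is 0 to 0.036 eRPKM. Myc tumours ran from 0.103 to 9.13 eRPKM (median 1.42), or 7 to 963 reads. Every Myc tumour lay above every control library.

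The Myc-off tumours held 1 to 15 Bcat1 reads, at 0.0167 to 0.205 eRPKM (median 0.0869). MycVD tumours held 0 to 18 reads, with 0 in 3 libraries, at 0 to 0.206 eRPKM (median 0.0307). The lowest Myc tumour, at 0.103 eRPKM, lay within the range of both groups, and another, at 0.206, level with the highest MycVD library, while the rest lay above both. The 2 highest MycVD libraries (0.129 and 0.206 eRPKM) were those with low Gapdh. As ID means none of the 7 Myc IDs overlapped with the other 3 groups.

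Averaged over IDs, Bcat1 was at 2.92 ± 2.56 eRPKM in Myc tumours (SD, n = 7), 0.102 ± 0.0142 in Myc-off tumours (n = 3), 0.0559 ± 0.0655 in MycVD tumours (n = 10) and 0.00937 ± 0.0121 in control liver (n = 11). The Myc mean was 311 times the control mean, with an interval of 143 to 848 that covers only the counting error of the 6 control reads. It was 28.5 times the Myc-off mean and 52.1 times the MycVD mean. Since the filter took Bcat1 in through the Myc tumours, its adjusted p-values are given from limma on all genes with no filter. On the log2 scale the Myc difference was 2.42 ± 0.23 against control (adjusted p = 8.9e-11). The difference was -2.18 ± 0.33 for Myc-off against Myc (adjusted p = 2.9e-06) and -2.30 ± 0.24 for MycVD against Myc (adjusted p = 1.3e-07). With a filter that asked for 1 eRPKM in 10 IDs, Bcat1 was not tested. With a smaller pseudocount of 0.1 these 3 differences were 4.35, -3.46 and -3.93. Against control liver neither the MycVD difference (0.12 ± 0.21, adjusted p = 0.64) nor the Myc-off difference (0.24 ± 0.32, adjusted p = 0.60) was called. With only Myc-off and control samples in the fit, the latter was called at the same size. That fit kept the filter which Bcat1 passed only through the Myc tumours, absent from it, so the call is no result.

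The spread of Bcat1 between Myc tumours was wide, also within an animal ID. The tumours of ID126948 lay at 0.103 and 2.87 eRPKM, a 27.8-fold difference, and those of ID128992 at 2.64 and 9.13. The 4 tumours of ID125324 ran from 0.206 to 1.46 eRPKM and the 4 of ID125320 from 0.611 to 2.42. Bckdk, by comparison, stayed within 33.9 to 48.9 eRPKM over all 16 Myc tumours. Leaving out any ID in turn kept the Bcat1 difference to control between 2.17 and 2.63.

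**Figure D3:**
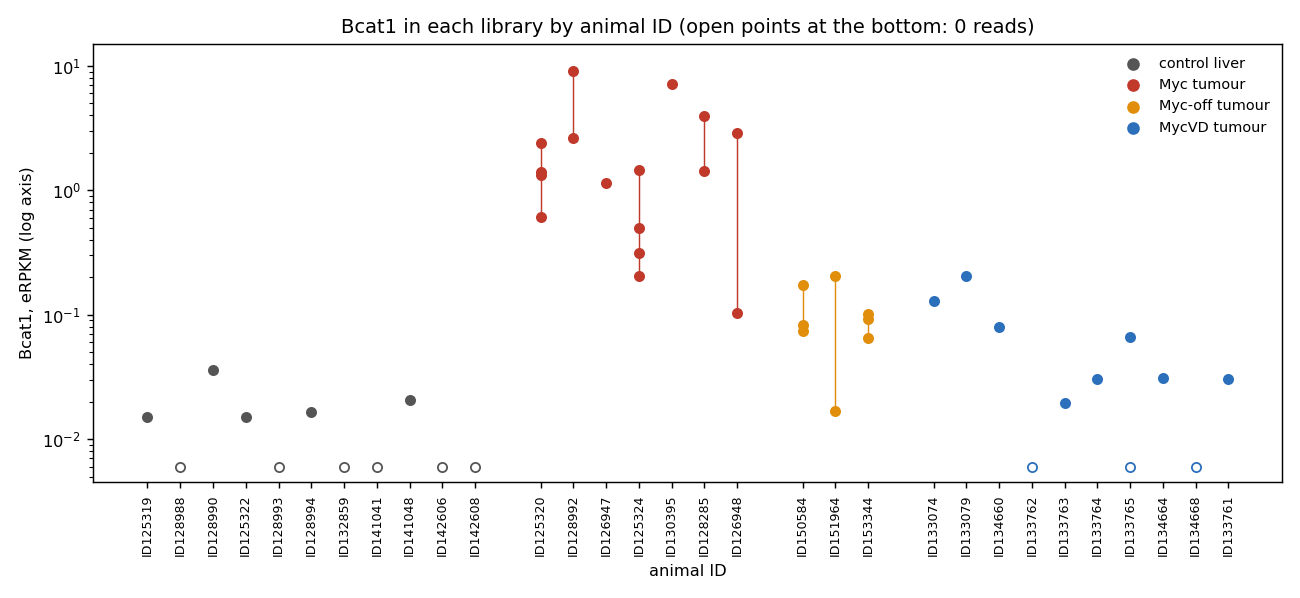
Bcat1 in eRPKM (log axis) in each library, by animal ID along the horizontal axis and coloured by group; lines join tumours of the same ID, and open points at the bottom are libraries with 0 reads, which have no place on a log axis. Tumours of ID126948 span 0.103 to 2.87 eRPKM, while no control library exceeds 0.036.

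Markers of other cell types were looked at beside Bcat1. In the exocrine pancreas list (6 genes) Cela1, an elastase gene, had a mean of 29.8 eRPKM in control liver, where the other 5 were under 1 in every library. Clps, which encodes colipase, reached a mean of 30.9 eRPKM in Myc tumours, taken over libraries and not averaged by ID first. Prss1 and Amy2a5 were at 0 and Cpa1 and Pnlip under 1 in every library of that group. The list's summed level ran from 23.1 to 39.1 eRPKM in control and 10.1 to 85.3 in Myc tumours, from 10.6 to 123 in Myc-off and from 1.51 to 17.2 in MycVD tumours. In the skeletal muscle list (4 genes) Ckm, muscle creatine kinase, averaged 15.7 eRPKM over the Myc libraries, with Acta1, Myh4 and Tnnt3 under 1. Its sum was 0 to 0.750 eRPKM in control, 6.77 to 35.2 in Myc, 0.497 to 28.5 in Myc-off and 0.523 to 5.89 in MycVD libraries. Of the 4 muscle genes 2 were tested, Ckm and Acta1, the gene of skeletal alpha-actin. Ckm was called lower in Myc-off (-2.12) and MycVD (-3.08) than in Myc tumours, while Acta1 was called higher in Myc-off tumours (1.51) and not called in MycVD tumours (0.57). Of the pancreas genes 2 were tested, and they went opposite ways in Myc tumours against control, Clps higher (5.40) and Cela1 lower (-2.51). Against Myc tumours Clps was called lower in MycVD (-3.84) and not called in Myc-off tumours (0.16), and Cela1 was not called in either. Their part in the Bcat1 difference was not tested.

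Bcat2, the mitochondrial transaminase, was the member that separated MycVD from Myc tumours besides Bcat1. Control livers lay at 14.7 to 25.6 eRPKM (median 19.0), Myc tumours at 10.7 to 19.4 (median 14.9), Myc-off tumours at 12.2 to 19.0 (median 15.7) and MycVD tumours at 7.66 to 11.96 (median 9.41). MycVD ID means did not overlap with those of the Myc tumours, although 1 single Myc library reached into the MycVD range. The MycVD mean was 9.78 ± 1.32 eRPKM (SD, n = 10) and the Myc mean 15.2 ± 2.04 (n = 7), a log2 difference of -0.61 ± 0.10 (adjusted p = 8.9e-05). It kept its call in all 33 alternatives.

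Against control liver (20.1 ± 3.52 eRPKM, n = 11) the log2 difference of Bcat2 was -0.38 ± 0.10 in Myc tumours (adjusted p = 8.4e-04) and -0.99 ± 0.09 in MycVD tumours (adjusted p = 1.1e-11). The former was -0.65 with quantile normalisation and -0.63 with median-ratio scaling. The Myc and control ID means overlapped, and the MycVD and control ID means did not. Switching the transgene off left no detectable difference from Myc tumours (0.04, 95% interval -0.25 to 0.32). The Myc-off difference from control (-0.34, adjusted p = 0.027) was -0.53 with median-ratio scaling and lost its call in 5 alternatives, among them leaving out any of the 3 Myc-off IDs. In order of level, control stood above Myc-off and Myc tumours, which did not differ beyond their spread, and MycVD tumours stood lowest.

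Macrophage genes were looked at beside Bcat2. Of 7 macrophage and Kupffer cell markers tested, 3 were lower in MycVD than in Myc tumours (Emr1, Csf1r, Marco), 1 was higher (Lyz2) and 3 were not called. Over all tested genes 9.69% were called lower there and 6.14% higher. The markers' summed level was 160 to 247 eRPKM in Myc and 150 to 225 in MycVD libraries. The part of these cells in the Bcat2 difference was not tested. Bcat1 stayed far below Bcat2: the ratio of the mean levels on the log2 scale corresponded to 0.158 in Myc tumours, 0.0542 in MycVD, 0.0376 in Myc-off and 0.0251 in control, with 0.608 in the highest Myc tumour. These ratios include the added 0.5, which sets most of the value where Bcat1 is near 0.

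The 3 subunit genes of the dehydrogenase complex were called lower in every tumour group than in control liver. Bckdha, the E1 alpha subunit that carries the regulatory phosphorylation, lay at 19.3 to 40.4 eRPKM in control livers (median 25.6) and at 8.35 to 18.3 in Myc tumours (median 12.7). MycVD tumours lay at 11.2 to 18.5 (median 12.3) and Myc-off tumours at 12.4 to 19.8 (median 16.0). Tumour and control ID means did not overlap for any of the 3 tumour groups. The log2 differences from control were -1.13 ± 0.13 for Myc (adjusted p = 3.1e-09), -0.89 ± 0.12 for MycVD (adjusted p = 4.3e-08) and -0.63 ± 0.18 for Myc-off tumours (adjusted p = 0.0027).

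Bckdhb, the E1 beta subunit, lay at 43.3 to 74.3 eRPKM in control (median 53.6), 18.2 to 35.3 in Myc (median 25.2), 14.7 to 42.7 in Myc-off (median 21.1) and 18.9 to 29.2 in MycVD libraries (median 24.7). No tumour library reached the lowest control. Its log2 differences from control were -1.12 ± 0.12 in Myc, -1.15 ± 0.11 in MycVD and -1.12 ± 0.16 in Myc-off tumours, with adjusted p-values of 3.9e-10, 2.3e-11 and 4.9e-07.

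Dbt, the E2 core that holds the lipoyl arms, was the least variable of the 3 in control liver, at 55.2 to 65.8 eRPKM (median 61.7). Myc tumours lay at 30.2 to 39.0 (median 34.5), MycVD tumours at 29.7 to 46.02 (median 35.4) and Myc-off tumours at 28.9 to 56.7 (median 39.5). The log2 difference from control was -0.84 ± 0.07 in Myc (adjusted p = 3.5e-12), -0.77 ± 0.06 in MycVD (adjusted p = 2.2e-12) and -0.66 ± 0.10 in Myc-off tumours (adjusted p = 7.4e-07). A single Myc-off library, of ID150584, reached the control range. It was the shallowest of all libraries (3.25 M reads) and had the highest Gapdh (99.2 eRPKM).

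Between Myc and MycVD tumours none of the 3 subunits was called. The 95% intervals of the log2 difference were -0.04 to 0.51 for Bckdha, -0.27 to 0.21 for Bckdhb and -0.08 to 0.21 for Dbt. Bckdha and Bckdhb had higher medians in the libraries with low Gapdh. Bckdha was at 13.2 to 18.3 eRPKM in the 5 such Myc libraries beside 8.35 to 15.5 in the other 11. It was at 40.4 in control ID125322 beside 19.3 to 29.0 in the other 10. In the 2 such MycVD libraries Bckdha (15.7 and 16.5) lay within the 11.2 to 18.5 of the other 9. Bckdhb (24.6 and 29.2) overlapped their 18.9 to 28.1. Without the 8 libraries with low Gapdh the Bckdha difference of Myc tumours from control was -1.16.

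After the switch-off, 1 of the 3 subunits was called. Bckdha was higher in Myc-off than in Myc tumours by 0.50 ± 0.19 (adjusted p = 0.027), with means of 16.2 ± 1.44 eRPKM (SD, n = 3) and 11.6 ± 2.84 (n = 7) and overlapping ID means. This call was lost in 6 of 26 alternatives, including a term for depth (0.30, adjusted p = 0.26) and leaving out Myc-off ID150584 (adjusted p = 0.062), ID151964 (0.12), or Myc ID126947, ID130395 or ID126948 (0.0501 to 0.058). Without the libraries with low Gapdh it was 0.59 (adjusted p = 0.0020). Dbt was not called (0.18 ± 0.10, adjusted p = 0.15), but was called without Myc-off ID151964 (0.30, adjusted p = 0.030). For Bckdhb the difference was 0.00 with a 95% interval of -0.34 to 0.34. Its 3 Myc-off IDs stood apart, at 36.2 and 42.7 eRPKM in ID151964, 20.4 to 25.5 in ID150584 and 14.7 to 21.1 in ID153344. Without ID151964 the Bckdhb difference was -0.33 (adjusted p = 0.098).

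Bckdk, the kinase that inactivates the complex, was called higher in all 3 tumour groups than in control liver. Control livers lay at 10.6 to 18.9 eRPKM (median 16.0), Myc tumours at 33.9 to 48.9 (median 39.4), MycVD tumours at 30.8 to 43.2 (median 35.0) and Myc-off tumours at 18.6 to 28.5 (median 23.9). The ranges of Myc and MycVD tumours lay clear of the other groups, and the lowest Myc-off library fell just inside the control range. That library, of ID150584, was the shallowest of all. Group means were 15.2 ± 2.95 eRPKM in control (SD, n = 11), 38.2 ± 2.98 in Myc (n = 7), 35.6 ± 4.28 in MycVD (n = 10) and 23.3 ± 2.02 in Myc-off (n = 3).

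The log2 difference of Bckdk from control was 1.32 ± 0.10 in Myc tumours, 2.50-fold (adjusted p = 1.6e-13), and 1.22 ± 0.09 in MycVD tumours (adjusted p = 1.0e-13). The difference was -0.70 ± 0.14 for Myc-off against Myc tumours (adjusted p = 1.2e-04), and Myc-off tumours were still above control by 0.62 ± 0.13 (adjusted p = 1.8e-04). MycVD and Myc tumours did not differ beyond their spread (-0.11, 95% interval -0.31 to 0.10, adjusted p = 0.51). The 4 calls held in all alternatives of each comparison.

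Genes of cycling cells moved with Bckdk. All 5 of them (Mki67, Top2a, Ccnb1, Mcm6, Pcna) were called higher in Myc tumours than in control, 4 of 5 were called lower in Myc-off than in Myc tumours, and 0 of 5 were called between MycVD and Myc tumours. Over all tested genes 50.4% were called higher in the first comparison and 28.0% lower in the second. In the third 6.14% were called higher and 9.69% lower. The 5 genes' summed level was 39.5 to 86.1 eRPKM in control, 352 to 499 in Myc, 188 to 274 in Myc-off and 350 to 496 in MycVD libraries. Their part in the Bckdk difference was not tested.

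The balance of kinase to substrate gene turned over between control and tumours. Bckdk was below Bckdha in all 11 control libraries (ratio 0.403 to 0.967) and above it in all 35 tumour libraries. The mean ratio over IDs, on levels with 0.5 added, was 0.597 in control, 3.28 in Myc, 2.58 in MycVD and 1.43 in Myc-off tumours. Ppm1k, the opposing phosphatase, went the other way from Bckdk. It lay at 47.8 to 84.0 eRPKM in control, 11.6 to 23.1 in Myc, 29.2 to 45.8 in Myc-off and 13.5 to 36.8 in MycVD libraries.

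The log2 difference of Ppm1k was -1.82 ± 0.15 in Myc tumours against control (adjusted p = 9.3e-13) and 1.01 in Myc-off against Myc tumours. MycVD and Myc tumours were not called apart (0.25). The ratio of Bckdk to Ppm1k, chosen after its values were seen, was 0.230 in control, 2.03 in Myc, 1.58 in MycVD and 0.617 in Myc-off tumours. Kinase mRNA thus exceeded phosphatase mRNA in every Myc tumour and fell short of it in every control and Myc-off library. MycVD libraries held both orders, with ratios of 0.970 to 2.58.

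**Figure D4:**
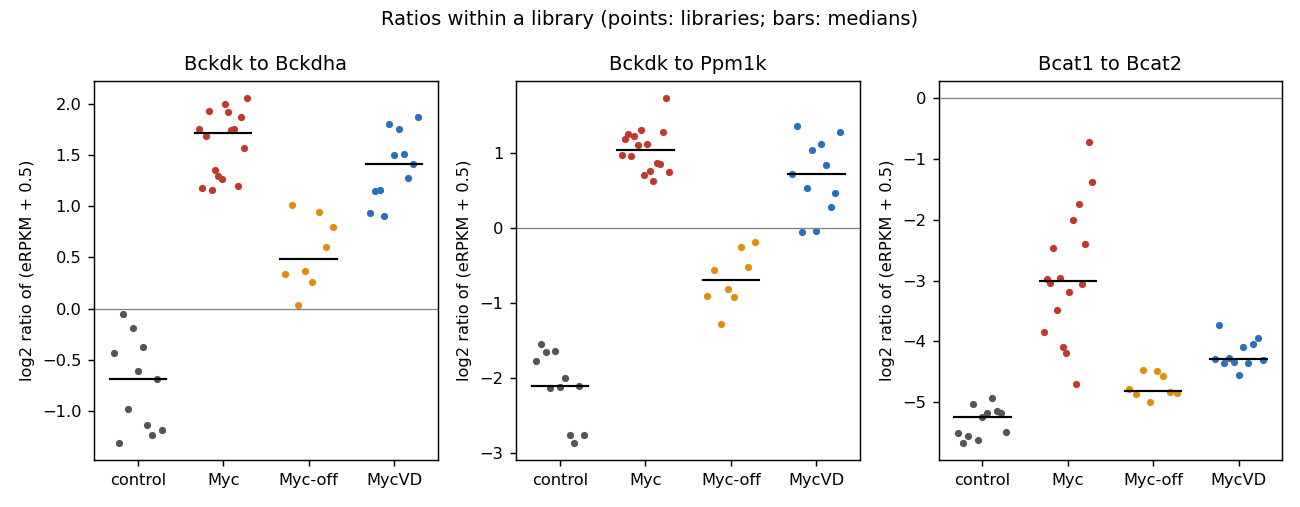
Log2 ratios within a library of Bckdk to Bckdha, Bckdk to Ppm1k and Bcat1 to Bcat2 (vertical axes, from eRPKM + 0.5), by group; points are libraries and bars are medians. Control libraries lie below 0 in the Bckdk panels and Myc tumours above 0, with Myc-off tumours in between.

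In the leucine branch, Ivd was the most abundant of the 9 genes in every group. It lay at 77.4 to 126 eRPKM in control (median 87.3), 45.7 to 70.1 in Myc (median 55.6), 52.6 to 88.6 in Myc-off (median 67.7) and 39.5 to 63.4 in MycVD libraries (median 56.8). No Myc or MycVD library reached the lowest control, while 2 Myc-off libraries of ID150584 did, among them the shallowest of all libraries. The log2 difference of Ivd from control was -0.74 ± 0.09 in Myc (adjusted p = 6.8e-09), -0.70 ± 0.08 in MycVD (adjusted p = 2.5e-09) and -0.39 ± 0.12 in Myc-off tumours (adjusted p = 0.0059). With quantile normalisation the Myc and MycVD differences were -0.41 and -0.46. Libraries with low Gapdh had higher Ivd medians. Control ID125322 was at 126 eRPKM beside 77.4 to 96.1 in the rest. Such Myc libraries lay at 53.4 to 70.1 beside 45.7 to 64.6, and such MycVD libraries (55.3 and 59.9) within 39.5 to 63.4. Without the libraries with low Gapdh the Ivd difference of Myc tumours from control was -0.73.

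Myc-off tumours were above Myc tumours in Ivd by 0.35 ± 0.13 (adjusted p = 0.023). This call was lost in 5 of 26 alternatives, among them quantile normalisation (0.25, adjusted p = 0.055), a term for depth (0.28, adjusted p = 0.14) and leaving out Myc-off ID150584 (0.24, adjusted p = 0.18) or ID151964 (0.36, adjusted p = 0.056). Ivd also had the most reads per kilobase of the 9 genes, up to 1007 in control ID125322. A start position correction took a ceiling of 2000 reads per kilobase, which is an assumption. Short genes aside, the highest value in a library was 2182 in control ID125322, past that ceiling, and 1461 to 1784 in the others. With this correction the call was also lost (0.31, adjusted p = 0.087). The Myc-off call against control was lost under quantile normalisation (-0.16, adjusted p = 0.17) and without Myc-off ID153344 (-0.29, adjusted p = 0.080).

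Of the carboxylase subunits, 1 was called in tumours. Mccc1, the biotin-carrying subunit, lay at 18.0 to 36.6 eRPKM in control (median 21.7), 14.01 to 19.5 in Myc (median 15.9), 12.2 to 24.8 in Myc-off (median 12.9) and 11.3 to 17.3 in MycVD libraries (median 15.1). The log2 difference from control was -0.48 ± 0.12 in Myc (adjusted p = 4.1e-04), -0.61 ± 0.10 in MycVD (adjusted p = 4.0e-06) and -0.54 ± 0.16 in Myc-off tumours (adjusted p = 0.0038). The Myc difference was -0.72 with either rescaling. Libraries with low Gapdh had higher Mccc1 medians. Control ID125322 was at 36.6 eRPKM beside 18.0 to 26.5 in the rest. Such Myc libraries lay at 14.6 to 19.5 beside 14.01 to 17.6, and such MycVD libraries (15.3 and 16.6) within 11.3 to 17.3. MycVD and control ID means did not overlap, and those of the other tumour groups did. Mccc1 in Myc-off tumours split by ID, with 19.9 to 24.8 eRPKM in the 3 tumours of ID150584 and 12.2 to 13.03 in the 5 tumours of the other IDs. The Myc-off call against control was lost without ID151964 (-0.40, adjusted p = 0.062) or ID153344 (-0.40, adjusted p = 0.064), and the difference was -0.81 without ID150584.

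Mccc2, the subunit that transfers the carboxyl group to the substrate, was not called in any of the 5 comparisons. Control libraries lay at 35.4 to 63.0 eRPKM (median 38.9), Myc at 31.9 to 52.2 (median 38.5), Myc-off at 28.7 to 47.8 (median 36.4) and MycVD at 32.2 to 50.6 (median 36.6). All 4 ranges overlapped. The 95% interval of the Myc difference from control was -0.35 to 0.04. With median-ratio scaling Mccc2 was called lower than control in all 3 tumour groups, with differences of -0.40, -0.28 and -0.34 in Myc, MycVD and Myc-off tumours. In the libraries with low Gapdh its median was higher. It was at 37.8 to 52.2 eRPKM in the 5 Myc libraries beside 31.9 to 42.8 in the other 11, and 63.0 in control ID125322. The 2 MycVD libraries (36.2 and 42.8) lay within the 32.2 to 50.6 of the other 9.

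The order of the 9 genes within a group changed mostly through Bckdk. In control liver Ivd was followed by Dbt, Bckdhb, Mccc2, Bckdha, Mccc1, Bcat2, Bckdk and Bcat1. In Myc tumours Bckdk stood next to Ivd, at 38.2 ± 2.98 eRPKM beside Mccc2 at 37.2 ± 5.04 and Dbt at 34.0 ± 2.20, which are within a spread of each other. Bckdha, which stood at rank 5 in control liver, was at rank 8 there, at 11.6 ± 2.84 eRPKM. Bckdk stood at rank 5 in Myc-off tumours, near Bckdhb, and at rank 4 in MycVD tumours, near Dbt. Bcat1 was last in all 4 groups.

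The enzymes around the 9 genes were mostly lower in tumours too. Of 17 further catabolic enzymes and regulators, limma called 16 lower in Myc tumours than in control and 0 higher (0 also at an unadjusted p under 0.05), and Dld, the shared E3 component, was not called. With quantile normalisation 13 were called lower and 1 higher. Their median log2 fold change was -0.63, beside 0.28 over all tested genes, of which 29.7% were called lower and 50.4% higher. Among the 17, Ppm1k (-1.82) and Acadsb, the dehydrogenase of the isoleucine branch (-1.52 ± 0.10), had the lowest values. Acadsb lay at 46.9 to 68.9 eRPKM in control and 19.1 to 23.1 in Myc libraries, with no overlap. Aldh6a1, of the valine branch, lay at 101 to 139 in control and 33.4 to 57.1 in Myc libraries.

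After the switch-off 9 of the 17 were called higher than in Myc tumours and 1 lower (median 0.38), beside 22.8% and 28.0% of all tested genes. Ppm1k (1.01) and Acadsb had the highest values, and Auh, methylglutaconyl-CoA hydratase of the leucine branch, was the 1 called lower (-0.35). In MycVD against Myc tumours limma called 0 higher (1 at an unadjusted p under 0.05) and 1 lower, again Auh (-0.22), with a median of 0.06. That call was lost with either rescaling, and before it 6.14% of all tested genes were called higher there and 9.69% lower. Against control, 14 of the 17 were still called lower in Myc-off tumours and 16 in MycVD tumours, where Dld was called higher (0.23, adjusted p = 0.0094). With quantile normalisation 9 were called lower in Myc-off and 14 in MycVD tumours, with 1 called higher in each.

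Hepatocyte markers were also lower in Myc tumours, and their calls were like those of the enzymes in some comparisons and unlike them in others. Of the 7 in the table, 7 were called lower in Myc tumours than in control (median -0.83), 7 higher in Myc-off than in Myc tumours (median 0.78) and 5 higher in MycVD than in Myc tumours (median 0.45; 3 with quantile normalisation). Over all tested genes these shares were 29.7%, 22.8% and 6.14%. In that last comparison 0 of the 17 enzymes were called higher. In MycVD tumours against control 7 of 7 markers and 16 of the 17 enzymes were called lower, beside 31.1% of all tested genes. With quantile normalisation these counts were 5 and 14. In Myc-off against control 1 marker was called lower and 6 were not called. Called lower there were 14 of the 17 enzymes and 20.9% of all tested genes. With quantile normalisation 9 of the 17 enzymes were called lower and 1 higher there, and 1 marker lower. With median-ratio scaling 14 enzymes and 2 markers were called lower. The part of hepatocyte content or state in the enzyme differences was not tested.

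Genes for carriers of branched-chain amino and keto acids were mostly higher in Myc tumours, with 6 of 7 called higher and 1 lower than in control, where 50.4% of all tested genes were called higher. Their median was 0.57, beside 0.28 over all tested genes. Slc7a5, the plasma membrane exchanger LAT1 that brings in leucine, lay at 1.74 to 4.55 eRPKM in control and at 36.6 to 56.3 in Myc libraries, a log2 difference of 3.91 ± 0.15. Slc7a8, the related exchanger LAT2, lay at 1.81 to 2.91 in control and 13.6 to 24.0 in Myc libraries (2.77). The gene called lower was Slc25a44, the mitochondrial carrier of branched-chain amino acids (-0.52). With either rescaling 5 were called higher and 1 lower.

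In Myc-off tumours limma called 3 of the 7 carriers lower than in Myc tumours and 0 higher (0 also at an unadjusted p under 0.05). The shares over all tested genes were 28.0% lower and 22.8% higher. The lowest difference of a carrier was that of Slc7a5, at -2.23, and its 4.71 to 16.9 eRPKM were still above every control library. Slc7a8 had -1.25. In MycVD against Myc tumours 3 carriers were called lower (4 at an unadjusted p under 0.05) and 0 higher (0 likewise), with Slc7a8 at -0.83 and Slc43a2 at -0.53. There 9.69% of all tested genes were called lower and 6.14% higher. Slc7a5 lay at 29.8 to 43.0 eRPKM in MycVD libraries and was not called apart from Myc tumours (-0.42, adjusted p = 0.055). Its ID means did not overlap, at 29.8 to 43.0 eRPKM in MycVD and 44.3 to 53.5 in Myc tumours, although single libraries did. With quantile normalisation 4 carriers were called lower there.

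The cofactor genes showed no common direction. The complex needs lipoate and thiamine diphosphate, the carboxylases biotin, and methylmalonyl-CoA mutase cobalamin. Of 9 such genes, 4 were called higher and 4 lower in Myc tumours than in control, beside 50.4% and 29.7% of all tested genes. The counts were 2 higher and 4 lower under quantile normalisation and 2 higher and 5 lower under median-ratio scaling. Lipt2, which starts lipoate synthesis, was among those called higher (1.46). Lowest were Btd, biotinidase (-1.36), and Mmaa of the cobalamin path (-1.18).

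With the transgene off, 5 of the 9 cofactor genes were called lower and 2 higher than in Myc tumours, beside 28.0% and 22.8% of all tested genes. Lipt2 lay at 13.5 to 21.9 eRPKM in Myc and 3.48 to 7.11 in Myc-off libraries, a difference of -1.79 with no overlap. Hlcs, which attaches biotin to the carboxylases, had -1.30. Btd was the highest, at 0.94. MycVD and Myc tumours differed in 3 of the 9, among them Hlcs, which was lower (-0.32), and Btd, which was higher (0.30). With either rescaling 0 of the 9 were called lower and 1 higher. Without rescaling, 9.69% of all tested genes were called lower there and 6.14% higher.

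**Figure D5:**
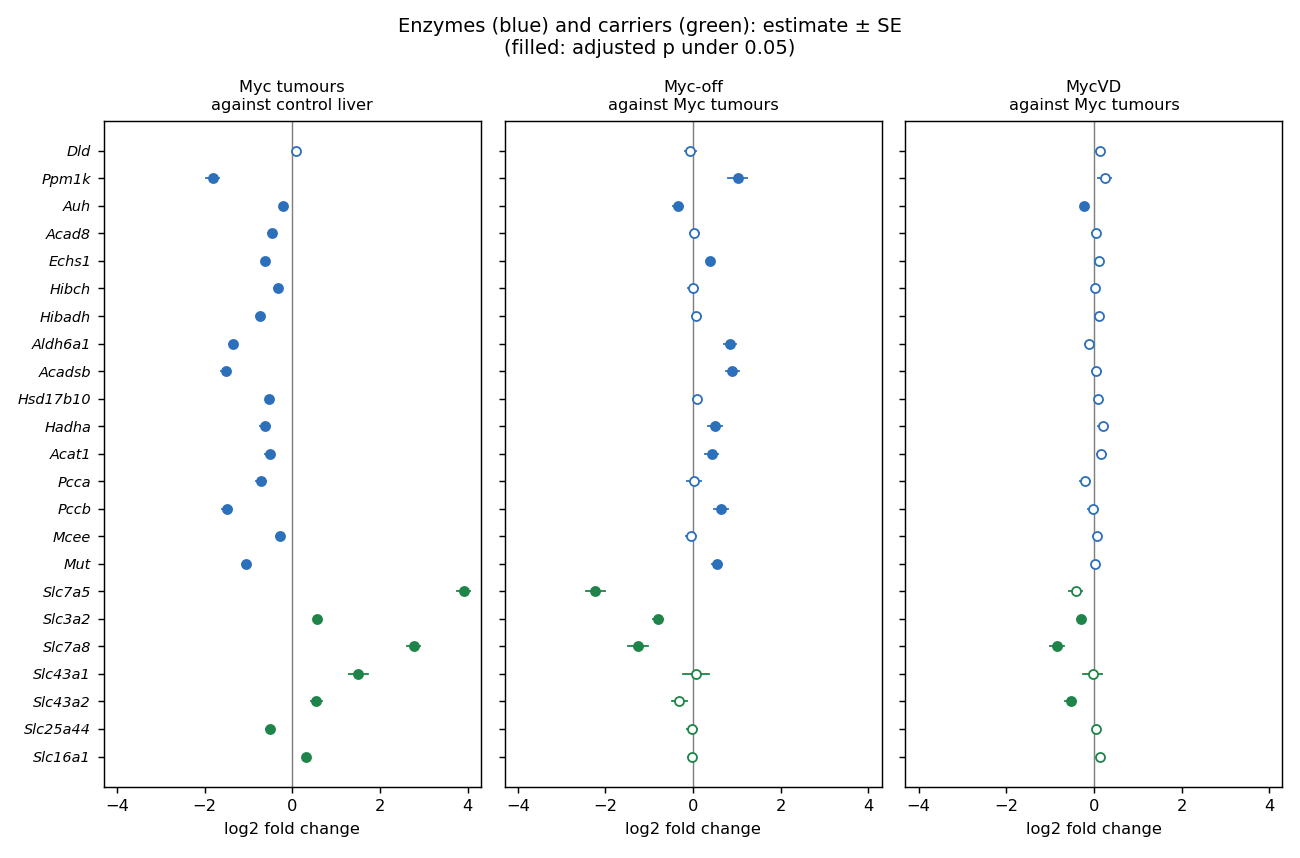
Log2 fold change ± SE (horizontal axes) of 16 further catabolic enzymes (blue) and 7 carriers (green) in 3 comparisons; filled points passed the threshold of 0.05 for the adjusted p. Enzymes lie left of 0 in Myc tumours against control except Dld, and Slc7a5 (3.91) and Slc7a8 (2.77) lie farthest right.

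The related pyruvate and 2-oxoglutarate dehydrogenase complexes showed no common direction, with 4 of 12 genes called higher and 4 lower in Myc tumours than in control (3 higher and 6 lower with median-ratio scaling). Without that scaling, 50.4% of all tested genes were called higher and 29.7% lower. The pyruvate dehydrogenase kinase genes showed no common direction either. Pdk2 lay at 36.3 to 46.9 eRPKM in control and 0.572 to 6.74 in Myc libraries, a difference of -4.12. Pdk3 was called higher (1.80), and Pdk1 (0.20) and Pdk4 (-0.74) were not called. Dlat, the E2 core of the pyruvate complex and the counterpart of Dbt, was called higher in Myc tumours than in control (0.85) and lower in Myc-off than in Myc tumours (-0.73). In Myc-off against Myc tumours Pdk2 was called higher (1.88) and Pdk1 lower (-1.06), and Pdk3 and Pdk4 were not called.

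Across the 31 ID means, the members' levels varied together in part. Pearson's r of Bckdha was 0.90 with Bckdhb, 0.92 with Ivd and -0.84 with Bckdk. These r values follow the group differences: after each group's mean was removed they were 0.67, 0.71 and -0.12. Mccc2 and Ivd had 0.62, and 0.86 with group means removed. The points share libraries, depth and tissue make-up, and these are descriptions.

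By the same measure, the 5 tested genes most like Bcat1 included Epha8 (r = 0.93, and 0.56 with group means removed), an ephrin receptor, and Faxc, Kcnj4 and Ptpru. Those most like Bckdk included H2afx (0.98 and 0.80), Trmt2a, Nek2 and Ints2. Mccc1 was most like Pcca (0.92 and 0.83), another biotin carboxylase subunit. Bcat2 was most like Cyb561d1 (0.94 and 0.68) and Cd163 (0.92 and 0.60), a scavenger receptor of macrophages. Ivd was most like Setd3 and Aldh4a1, Dbt like Sult5a1 and Gnmt, Bckdhb like Ddrgk1 and Agpat3, and Mccc2 like D10Jhu81e and Aifm1.

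The libraries do not mark strand. Exons of Bcat1, Bcat2, Bckdha and Mccc1 overlap genes on the opposite strand in GENCODE M21, and reads of the pairs cannot be told apart. Of these partners the table lists B3gnt8 beside Bckdha (medians of 2.13, 0.965, 1.46 and 0.898 eRPKM in control, Myc, Myc-off and MycVD libraries) and Mccc1os beside Mccc1 (0.494, 0.508, 0.474 and 0.342), all well below the members. Reads behind the members other than Bcat1 numbered 105 to 2081 per library, so that counting error is small for them, while the values of Bcat1 outside Myc tumours rest on 0 to 18 reads. Ranges of read counts say nothing of other error.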

How the data were processed

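Total RNA from 46 FVB mouse liver and tumour samples was depleted of ribosomal RNA and sequenced as libraries that do not mark strand, per the labels' protocols. The deposited table holds exonic RPKM values made by the authors. Per the submitters' processing notes the tools and build were TopHat2 2.0.8, TopHat and mm9. For the counter, the annotation and the RPKM denominator, nothing is given in the sources used here. Depth was recovered from the steps of low values. A gene's step was kept only where all its values lay within 0.001 of whole reads (17706 genes). That closeness is therefore no check of the recovery. Tumours with the same ID were averaged, which gave 31 IDs. The filter kept 14566 genes that reached 1 eRPKM in 3 or more IDs and removed 7105. Differences were fitted with limma 3.58.1 in R 4.3.3 (eBayes with trend, two-sided, 4 groups in 1 fit) on log2(eRPKM + 0.5), with Benjamini-Hochberg adjustment over all kept genes at 0.05, and the scripts were tested on simulated data. Alternatives varied the pseudocount, filter, scaling, averaging, weights, covariates and samples. The 9 genes and the surrounding lists were chosen with earlier results of these data known. By the naming rule the 9 genes are named throughout, each list by its called genes of highest and lowest fold change (up to 2 each way), and likeness by the 5 highest r. Genes named beyond it, such as Aldh6a1, Hlcs and Dlat, were chosen after their values were seen. A few genes of these lists are not reported here by name.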

Additional observations from a re-analysis of the deposited data

How the results depend on the processing

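The 8 calls among the 9 genes in Myc tumours against control liver, and the 7 in MycVD tumours against control liver, kept direction and threshold in every alternative that gave a value. An alternative chosen after seeing the data, leaving out the 8 libraries with Gapdh under 30 eRPKM, changed no call of the 9 genes and took the genes called between MycVD and Myc tumours from 2306 to 3987. That count was 959 with a term for depth, 4770 with array weights and 1500 to 2646 with 1 ID left out, lowest without Myc ID130395. With at least 1 eRPKM required in 10 IDs Bcat1 was not tested, and 1 of the 9 was called there. In Myc-off against Myc tumours 2 of the 9 were called with a depth term, and 2 to 4 with 1 ID left out (2 without Myc-off ID150584). In Myc-off against control liver it was 4 to 7 (4 without Myc-off ID153344). Signs turned only for differences that were not called. In Myc-off against Myc tumours Bckdhb became -0.15 with every library as its own sample, -0.073 with ID as a random effect, -0.027 with a depth term, -0.0087 with a sex term, -0.25 with array weights and -0.027 with the start position correction. Mccc1 became 0.080 (quantile) and 0.00053 (median-ratio), and Mccc2 0.027 (quantile), 0.059 (median-ratio) and 0.053 (without low Gapdh). With 1 ID left out Bckdhb ran from -0.33 to 0.26, Mccc1 from -0.34 to 0.078, Mccc2 from -0.10 to 0.046 and Bcat2 from -0.0026 to 0.094. In MycVD against Myc tumours Bckdhb became 0.0017 (quantile), 0.027 (median-ratio) and 0.024 (without low Gapdh), and -0.068 to 0.027 with 1 ID left out. Ivd became -0.052 (quantile), -0.025 (every library), -0.0082 (depth term) and -0.010 (start position correction), Mccc2 -0.022 (every library) and Dbt -0.040 (depth term). Bcat1 against control became -0.11 (quantile) and -0.0046 (depth term) in MycVD and -0.19 (quantile) in Myc-off tumours. The cause was not tested. Myc-off tumours came from 3 IDs, which limits every result on them. No paired analysis was possible because the IDs of the titles are not shared between groups.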

Other observations

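The aminotransferases of other amino acids, which do work like that of Bcat1 and Bcat2, were largely lower in Myc tumours: of 10 tested, 8 were called lower than in control liver and 1 higher (limma, adjusted p under 0.05 over all tested genes), with a median log2 fold change of -1.74. Over all tested genes 29.7% were called lower and 50.4% higher there, with a median of 0.28. The lowest of the 10 were Tat, which breaks down tyrosine (-5.61), and Aadat, of lysine and tryptophan breakdown (-4.04). The 1 called higher was Psat1, of serine synthesis (4.86), at 1.02 to 4.94 eRPKM in control and 84.9 to 129 in Myc libraries. In Myc-off against Myc tumours 5 were called higher, among them Tat (3.19) and Aadat (1.99), and 1 lower, Oat (-0.70). The shares of all tested genes there were 22.8% higher and 28.0% lower. Psat1 stayed at 70.7 to 137 eRPKM in Myc-off libraries and was not called (0.00). In MycVD against Myc tumours 1 of the 10 was called, Aadat, higher (1.06), where 6.14% of all tested genes were called higher and 9.69% lower.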
